A study of Homo sapiens with 18 samples.

Results

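The coat of COPII vesicles was described through 10 genes: the GTPase genes SAR1A and SAR1B, the inner coat genes SEC23A, SEC23B, SEC24A, SEC24B, SEC24C and SEC24D, and the outer coat genes SEC13 and SEC31A. They were taken by gene symbol as 10 of the 57736 Ensembl genes in the count table, and all 10 passed the filter on low counts. By the study's description, the mRNA came from A1847, an established line of high-grade serous ovarian carcinoma. The 3 genotypes were cells labelled wild type (here control), CARM1 knockout cells (lentiviral CRISPR) and XBP1 knockdown cells (lentiviral short hairpin RNA). Each genotype received vehicle or 5 μg/ml tunicamycin for 8 h, with 3 replicates a group and 18 libraries in all. Whether the control cells carried a control vector, and whether the knockout cells were a pool or a clone, is not given in the sources used here. The labels only number the replicates, while the study describes its experiments in general as biologically independent repeats, so the p-values measure the spread between these libraries. The question of the design was which stress-induced genes depend on the arginine methyltransferase CARM1 and on the transcription factor XBP1.

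COPII vesicles carry newly made proteins from the endoplasmic reticulum (ER) to the Golgi. The ER membrane protein PREB loads SAR1 with GTP, SAR1 inserts into the membrane and recruits SEC23 with SEC24, and SEC13 with SEC31 polymerizes over them into a cage. SEC24 binds cargo, with a different range of cargo for each of its paralogs, and SEC23 activates the GTPase of SAR1. Tunicamycin blocks N-glycosylation, so that unfolded proteins accumulate in the ER and the unfolded protein response starts, of which the spliced form of XBP1 is a transcription factor.

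Promoter sequence is shown first because the members were compared for their response to this pathway. RefSeq promoter windows (GRCh38.p14, 250 bases before to 50 after each start) matched 9 of the 10 members, all but SEC24D. They were searched on both strands for the ER stress elements ERSE (CCAAT, 9 bases, CCACG) and ERSE-II (ATTGG, 1 base, CCACG), the unfolded protein response element UPRE (TGACGTGG), the letters ACGTCA that the study names, and the amino acid response element CARE (TGATGNAA). UPRE was found in SEC23A and SEC24A. Its letters contain TGACGT, the reverse complement of ACGTCA, so any UPRE match also holds an ACGTCA match on the other strand. ACGTCA was also found in SEC23B, SEC24C, SEC13 and SAR1A. The windows of SEC24B, SEC31A and SAR1B held none of the 5 motifs, and no member window held ERSE, ERSE-II or CARE. Of all 35116 windows, 0.729% held UPRE, 7.98% ACGTCA, 3.62% CARE, 0.0769% ERSE and 0.0541% ERSE-II. Counted by gene, as the members are, the shares of 27305 genes were 0.927%, 9.64%, 4.46%, 0.0916% and 0.0696%. A match describes letters in a window and is not a binding site. The matches are printed 5′ to 3′ on the strand of the gene, with the matched letters in capitals.
SEC23A: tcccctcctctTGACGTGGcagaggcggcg
SEC24A: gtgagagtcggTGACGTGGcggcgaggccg
SEC23B: ttccgcgagcatACGTCAtcgttctcgctt
SEC24C: gcctgggagcctTGACGTtaggaacgaagt
SEC13: ctctggtctcgcACGTCActggaggatagg
SAR1A: cggggaggggtgTGACGTacatccggcgag
In GRCh38.p14 the SEC23A run lies at chr14:39103221-39103250 on the minus strand and its match spans the start, from base -4 to base 4. The SEC24A run lies at chr5:134648595-134648624 on the plus strand, with the match from base -179 to base -172. The SEC23B run is at chr20:18507538-18507567 (plus strand, match from base 3 to base 8) and the SEC24C run at chr10:73744387-73744416 (plus strand, match from base 28 to base 33), both downstream of the start. The SEC13 run is at chr3:10321237-10321266 (minus strand, match from base -142 to base -137 of its first window) and the SAR1A run at chr10:70170501-70170530 (minus strand, match from base -4 to base 2).

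The libraries held 9367462 to 13917212 counts, both extremes being CARM1 knockout libraries with vehicle, and the members had 68 to 5504 counts in a library. CARM1 was at 159.8 to 165 CPM (the count relative to the library total, scaled by TMM) in vehicle-treated control libraries and at 71.5 to 77.6 in vehicle-treated knockout libraries, which still held 625 to 946 CARM1 counts. These 3′ reads do not check the edited part of the gene. The study examined CARM1 protein in control and knockout A1847 cells by immunoblot. XBP1 was at 45.9 ± 4.49 CPM in control, 25.4 ± 1.25 in knockdown and 33.9 ± 6.49 in knockout cells with vehicle (SD, n = 3). With tunicamycin it was at 149.7 ± 3.02, 71.5 ± 2.34 and 142.9 ± 2.32 CPM, in the same order. The CARM1 knockout libraries stood apart: across genes, their log2 CPM correlated with the 12 other libraries at r from 0.647 to 0.720, against 0.920 to 0.990 between control and knockdown libraries and 0.991 to 0.995 between replicates. Of 7 epithelial ovarian carcinoma markers, MUC16 was at 0 counts in every library. PAX8 was at 0 to 2 counts and KRT7 at 0 to 13 in each control and knockdown library, against 465 to 840 and 3576 to 5166 in each knockout library. WT1 was at 0 to 2 counts in each control and knockdown library and at 3 to 13 in each knockout library. Of the 7 markers, only 3 averaged over 1 CPM in each control and knockdown group (EPCAM, KRT8 and KRT18), and 5 did in each knockout group. Whether all 18 libraries came from the same line was not tested. The 7 markers summed to 310 to 331 CPM with vehicle and 460 to 485 with tunicamycin in control libraries, to 130 to 144 and 198 to 214 in knockdown libraries, and to 2674 to 2769 and 2249.5 to 2353 in knockout libraries. The knockdown libraries were thus also apart from control in these markers, with log2 differences of -1.61 for KRT8 and -1.19 for KRT18 with vehicle (adjusted p = 3.05e-08 and 2.28e-08, edgeR) and -1.25 and -1.21 with tunicamycin, and the part of this in the knockdown differences below was not tested. PTPRC of blood cells and DCN of fibroblasts together reached 0 to 1.94 CPM in any library. In comparisons of knockout with control cells, the loss of CARM1 and whatever else sets these libraries apart cannot be told apart, and the part of either in the differences below was not tested.

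Tunicamycin raised 9 of the 10 members in control cells (edgeR's quasi-likelihood test, FDR of 5% over all 17317 genes tested), while over all genes 22.0% were called higher and 19.9% lower. The median log2 fold change was 0.78 over the members and 0 over all genes tested. SEC24D rose most, by 17.2-fold, followed by SEC23B (5.20-fold), SEC31A (3.66-fold) and SEC13 (1.97-fold). SEC24B was the member called lower. DESeq2 called 8 higher, without SAR1B (adjusted p = 0.113), and none lower. In bulk RNA, a change in the make-up of the cells and a change of RNA per cell cannot be told apart.

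**Figure D1:**
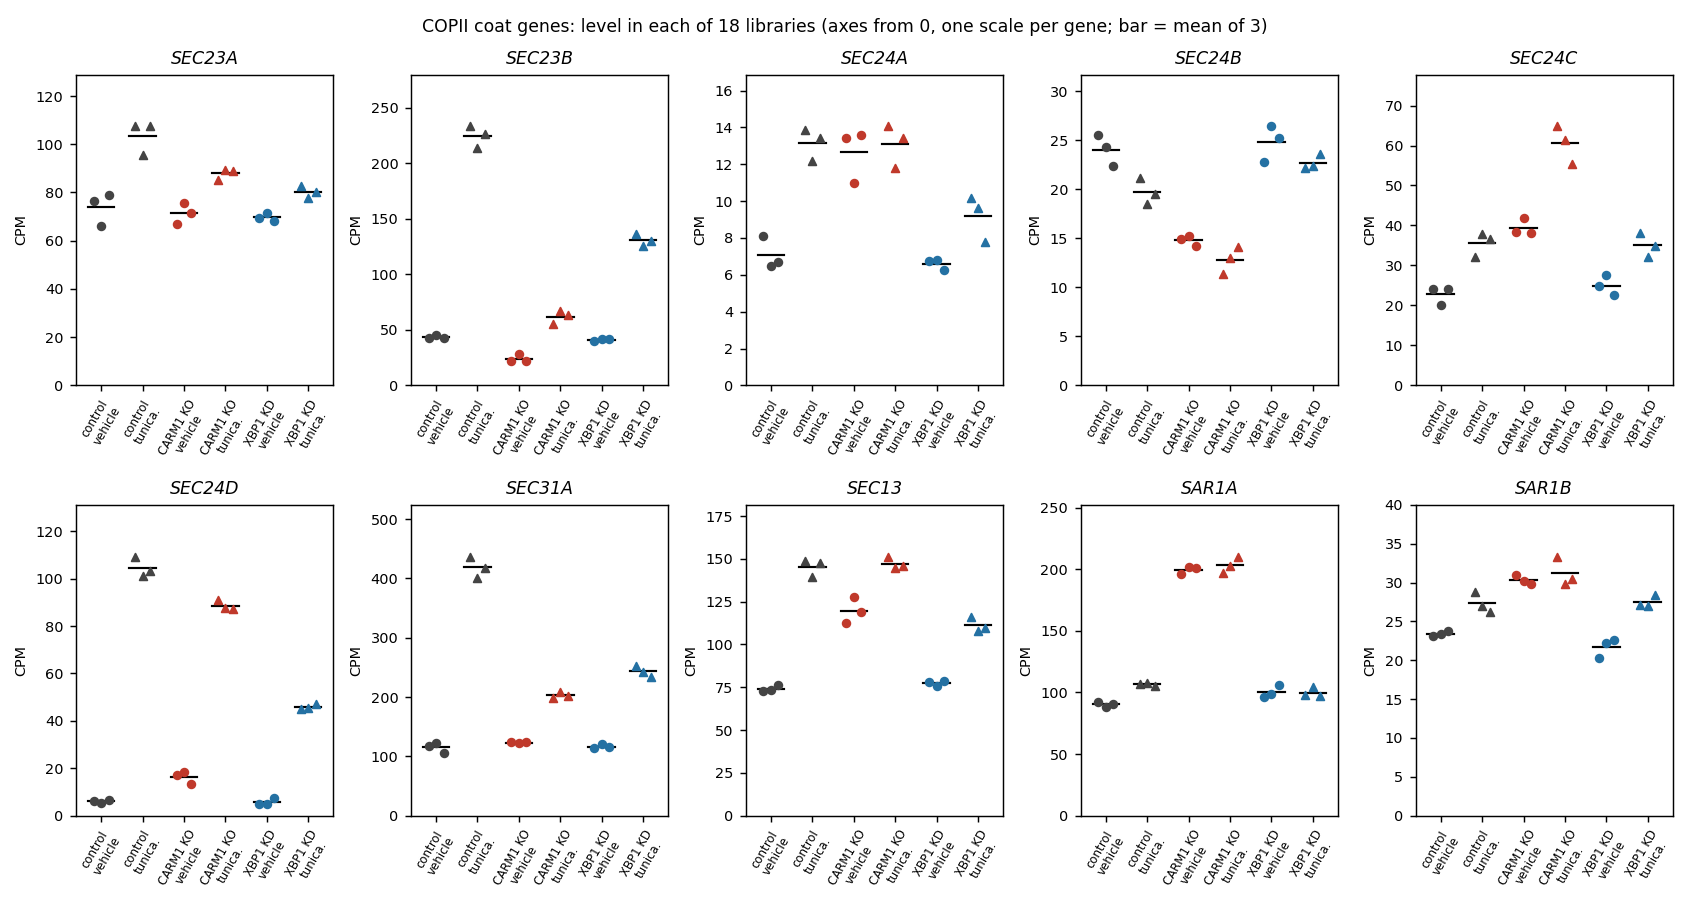
Level of each COPII coat gene in CPM (vertical axis, from 0, with its own scale per gene) in each of the 18 libraries, 3 per group. Circles are vehicle, triangles tunicamycin, and the horizontal bar is the group mean. SEC24D, SEC23B and SEC31A with tunicamycin lie above all vehicle libraries of the same genotype, and SAR1A lies between 196 and 210.2 CPM in all 6 CARM1 knockout libraries.

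SEC24D (ENSG00000150961), a cargo-binding subunit on chr4:119643978-119759838 of GRCh37 (minus strand), was at 6.18, 5.52 and 6.62 CPM in control cells with vehicle and at 109, 101 and 103 with tunicamycin. In CARM1 knockout cells it was at 17.0, 18.3 and 13.2 with vehicle and at 90.8, 87.8 and 87.1 with tunicamycin. In XBP1 knockdown cells it was at 5.12, 4.96 and 7.44 and then at 45.2, 45.4 and 47.0. The groups with and without tunicamycin did not overlap in any genotype, the knockout cells started higher, and the knockdown cells ended lowest. The log2 fold changes with tunicamycin were 4.10 (standard error 0.0895) in control, 2.47 (0.0776) in knockout and 2.96 (0.123) in knockdown cells, with adjusted p of 4.83e-15, 8.64e-17 and 4.89e-11 from edgeR's quasi-likelihood test. In control cells 0.398% of the genes tested had a larger log2 fold change.

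SEC23B (ENSG00000101310), an inner coat subunit and activator of the SAR1 GTPase on chr20:18488164-18542059 (plus strand), was at 42.6, 45.9 and 42.3 CPM in control cells with vehicle and at 233, 214 and 227 with tunicamycin. In knockout cells it was at 21.8, 28.2 and 21.6 and then at 55.7, 66.6 and 63.2. In knockdown cells it was at 39.7, 41.7 and 41.5 and then at 137, 125 and 130.2. All 6 knockout libraries lay below the control libraries of the same treatment, and with tunicamycin the 3 genotypes formed separate ranges with the control highest. The log2 fold changes with tunicamycin were 2.38 (standard error 0.0633), 1.40 (0.0892) and 1.67 (0.0579) in control, knockout and knockdown cells.
Its paralog SEC23A (ENSG00000100934, chr14:39501123-39578850, minus strand), whose protein has the same role, ranged from 66.2 to 78.9 CPM in control cells with vehicle and from 95.6 to 107 with tunicamycin. Its ranges with vehicle overlapped between the 3 genotypes. With tunicamycin it was at 85.3 to 89.5 in knockout and 77.6 to 82.7 in knockdown cells, in ranges that do not overlap each other or that of control cells. Its log2 fold changes were 0.50, 0.34 and 0.19 in control, knockout and knockdown cells (adjusted p = 4.71e-05, 1.93e-05 and 0.0119, edgeR).

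SEC31A (ENSG00000138674), whose protein forms the outer cage, lies on chr4:83739662-83822319 (minus strand). It was at 118, 122 and 106 CPM in control cells with vehicle and at 437, 401 and 418 with tunicamycin. In knockout cells it was at 125, 122 and 123 and then at 199, 208 and 201. In knockdown cells it was at 114, 120.4 and 115 and then at 252, 242 and 235. With vehicle the 3 genotypes lay within 106 to 125 CPM, and with tunicamycin their ranges were separate, with control cells highest and knockout cells lowest. The log2 fold changes were 1.87 (standard error 0.0617), 0.75 (0.0398) and 1.06 (0.0493).
SEC13 (ENSG00000157020, chr3:10334815-10362796, minus strand), the partner of SEC31 and also a nuclear pore protein, was at 73.0, 73.4 and 76.1 CPM in control cells with vehicle and at 149, 139 and 147 with tunicamycin. In knockout cells it was at 113, 128 and 119 and then at 151, 145 and 146. In knockdown cells it was at 78.0, 75.8 and 78.4 and then at 116, 108 and 109.8. The knockout libraries with vehicle were above every control and knockdown library with vehicle, whereas with tunicamycin the knockout and control ranges overlapped. The log2 fold changes were 0.98, 0.33 and 0.52.

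The other SEC24 paralogs, all cargo-binding subunits, moved less. SEC24A (ENSG00000113615, chr5:133984475-134063599, plus strand) was at 6.48 to 8.11 CPM in control cells with vehicle and at 12.2 to 13.9 with tunicamycin, a log2 fold change of 0.91 (adjusted p = 4.72e-05, edgeR). In knockout cells it was at 11.0 to 13.6 and 11.8 to 14.1, ranges that overlap, with a log2 fold change of 0.09 (95% confidence interval -0.16 to 0.34). In knockdown cells it rose from 6.24 to 6.80 up to 7.77 to 10.1 CPM (log2 fold change 0.47, adjusted p = 0.0216, edgeR), but the call was lost without vehicle library 3 (0.43) or tunicamycin library 1 or 2 (0.39 and 0.44).
SEC24C (ENSG00000176986, chr10:75504130-75531919, plus strand) rose in all 3 genotypes, with log2 fold changes of 0.65, 0.65 and 0.48. Its highest levels were in knockout cells, at 38.1 to 41.9 CPM with vehicle and 55.5 to 64.8 with tunicamycin, against 20.2 to 24.2 and 32.1 to 37.8 in control cells.
SEC24B (ENSG00000138802, chr4:110354928-110462052, plus strand) was at 22.3 to 25.6 CPM in control cells with vehicle and at 18.5 to 21.2 with tunicamycin, or -0.27 as log2 fold change (adjusted p = 0.0331, edgeR). This call was lost without control vehicle library 1 or 2 (-0.23 and -0.27) and without control tunicamycin library 2 or 3 (-0.24 and -0.28). In knockout and knockdown cells its log2 fold changes of -0.17 and -0.14 did not pass the test.

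The GTPase genes changed little with tunicamycin. SAR1A (ENSG00000079332, chr10:71907045-71930279, minus strand) was at 92.0, 88.1 and 90.6 CPM in control cells with vehicle and at 107, 108 and 106 with tunicamycin. In knockout cells it was at 196, 202 and 201 and then at 197, 203 and 210.2. In knockdown cells it was at 96.6, 98.6 and 106 and then at 98.2, 104 and 96.8. The knockout libraries were far above all others under both treatments, and only in control cells were the ranges with and without tunicamycin separate (log2 fold change 0.25, adjusted p = 0.00179, edgeR). In knockout and knockdown cells the log2 fold changes were 0.06 (95% confidence interval -0.02 to 0.14) and -0.02 (-0.14 to 0.10).
SAR1B (ENSG00000152700, chr5:133936839-133984961, minus strand), whose protein is needed to export large lipoproteins, was at 23.1 to 23.7 CPM in control cells with vehicle and at 26.3 to 28.8 with tunicamycin. This log2 fold change of 0.24 passed at an adjusted p of 0.0379 (edgeR), but lost the call when any of the 6 libraries was left out (0.18 to 0.26), with DESeq2 (0.23) and with no filter (0.23, adjusted p = 0.105). In knockdown cells it rose from 20.3 to 22.7 up to 27.0 to 28.4 CPM (log2 fold change 0.33, adjusted p = 0.00589, edgeR), and in knockout cells the ranges of 29.9 to 31.0 and 29.8 to 33.3 overlapped. The annotated spans of SAR1B and SEC24A share 487 bases at their 5′ ends, and the log2 fold changes of the pair in control cells were 0.24 and 0.91.

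**Figure D2:**
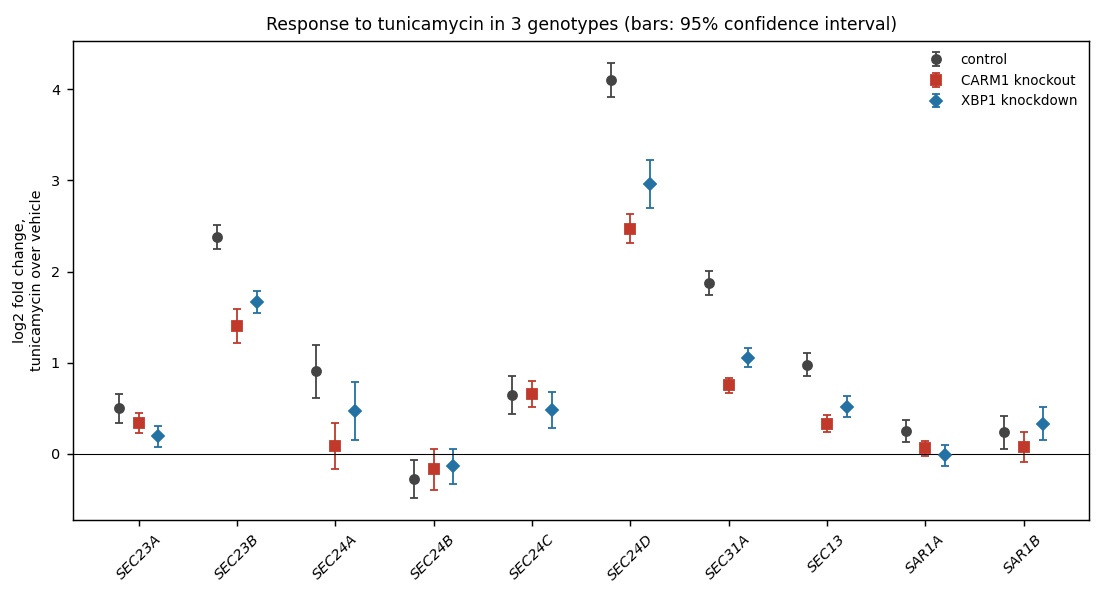
Log2 fold change of tunicamycin over vehicle (vertical axis) for each member in control, CARM1 knockout and XBP1 knockdown cells, with bars for the 95% confidence interval. SEC24D, SEC23B and SEC31A are highest in control cells, at 4.10, 2.38 and 1.87, and SEC24C lies between 0.48 and 0.65 in the 3 genotypes.

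In knockout cells 6 members rose with tunicamycin (SEC23A, SEC23B, SEC24C, SEC24D, SEC31A and SEC13), against 20.6% of all genes called higher and 18.8% lower. In knockdown cells 8 rose, with SEC24A and SAR1B besides those 6, against 19.2% higher and 19.0% lower over all genes, and 7 by DESeq2, which did not call SEC24A (adjusted p = 0.0570). By edgeR no member was called lower in either genotype, and none was at an unadjusted p under 0.05 or by DESeq2. The order by log2 fold change of the first 3 members, SEC24D, SEC23B and SEC31A, was the same in each genotype. Whether the responses differ was tested as the interaction of genotype and treatment, with the same control libraries in both tests.
In CARM1 knockout cells the log2 response was smaller for 6 of 10 members: SEC24D by -1.65 (standard error 0.135, adjusted p = 1.97e-08, edgeR), SEC31A by -1.14 (0.0729, 6.88e-10), SEC23B by -0.99 (0.119, 3.31e-06), SEC24A by -0.84, SEC13 by -0.67 and SAR1A by -0.21. Over all genes, 12.4% had a lower and 10.5% a higher term. This split over all genes, 1814 higher and 2151 lower, turned to 2281 higher and 1710 lower with at least 10 counts required in every library, to 2375 and 1745 with no filter, and to 2085 to 2324 and 1467 to 1759 without any 1 of the 6 control libraries. The SAR1A term (adjusted p = 0.0212) was -0.15 and -0.14 in the first and second of these settings and not called (adjusted p = 0.0813 and 0.339, edgeR), and it also lost the call without any of the 6 control libraries (-0.15 to -0.13) or knockout tunicamycin library 1 (-0.19). The term was 0.09 (95% confidence interval -0.21 to 0.38) for SEC24B and -0.02 (-0.27 to 0.24) for SEC24C.
In XBP1 knockdown cells 4 of 10 members had a smaller response: SEC24D by -1.14 (standard error 0.163, adjusted p = 0.000459, edgeR), SEC31A by -0.81 (0.0773, 5.15e-06), SEC23B by -0.70 (0.0807, 4.46e-05) and SEC13 by -0.46 (0.0733, 0.00126). Over all genes, 1.67% had a lower and 0.364% a higher term. The terms of SEC24A (-0.43), SEC23A (-0.30) and SAR1A (-0.26) were at unadjusted p under 0.05 and did not pass after adjustment. No member had a larger response in either genotype by edgeR, at an unadjusted p under 0.05 or by DESeq2, which gave no adjusted p for 1 member in knockdown cells. SAR1A, SEC23B and SEC31A belong to a gene list that the study chose partly on these libraries, for a rise with tunicamycin that was smaller in both modified genotypes, so the direction of their terms is not independent evidence.

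Between knockout and control cells with vehicle, 8 of 10 members differed, 6 higher and 2 lower, where 37.5% of all genes were higher and 36.9% lower. The members' share is thus near that of all genes. SEC24D was higher, with a log2 difference of 1.36 (standard error 0.146), SAR1A by 1.10 (0.0480), SEC24A by 0.79, SEC24C by 0.74, SEC13 by 0.65 and SAR1B by 0.33. SEC23B was lower at -0.91 (0.0987) and SEC24B at -0.74 (0.0968). SEC31A differed by 0.05 (95% confidence interval -0.07 to 0.17) and SEC23A by -0.09 (-0.25 to 0.06), neither passing the test.
With tunicamycin 3 members were higher and 5 lower in knockout cells, against 38.4% and 36.8% of all genes. SEC23B was lower, with a log2 difference of -1.85 (standard error 0.0638, adjusted p = 1.09e-12, edgeR) and SEC31A by -1.04 (0.0447, adjusted p = 1.49e-11), followed by SEC24B (-0.61), SEC24D (-0.23) and SEC23A (-0.23). SAR1A (0.94), SEC24C (0.78) and SAR1B (0.20) were higher. SAR1B lost this call without control library 2 or 3 (0.18 and 0.17) or knockout library 1 or 3 (0.15 and 0.21), with DESeq2 (0.22, adjusted p = 0.0645), which left 2 members higher, and with no filter (0.21, adjusted p = 0.0512). SEC24D thus lay above control with vehicle and below it with tunicamycin.

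Between knockdown and control cells with vehicle no member differed by edgeR or by DESeq2, and 1 member, SAR1A, was at an unadjusted p under 0.05 (log2 fold change 0.15, adjusted p = 0.174, edgeR). Over all genes 2.07% were higher and 3.03% lower, or 359 and 524 genes, and with a library left out these counts were 146 (without control library 2) to 580 (without control library 3) and 289 to 654 (without the same libraries). The 95% confidence intervals of the 10 members lay between -0.46 and 0.34, the widest being that of SEC24D, from -0.46 to 0.32.
With tunicamycin 6 members were lower in knockdown cells, against 8.55% of all genes lower and 6.99% higher. SEC24D was lower, with a log2 difference of -1.19 (standard error 0.0602, adjusted p = 5.43e-09, edgeR), SEC31A by -0.78 (0.0487), SEC23B by -0.78 (0.0541), SEC24A by -0.51, SEC13 by -0.38 and SEC23A by -0.37. The SEC24A call was lost without control library 1 or 3 (-0.48 and -0.50) or knockdown library 3 (-0.41). No member was called higher by edgeR or by DESeq2, and SEC24B was higher at an unadjusted p under 0.05 (log2 fold change 0.20, adjusted p = 0.174).

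**Figure D3:**
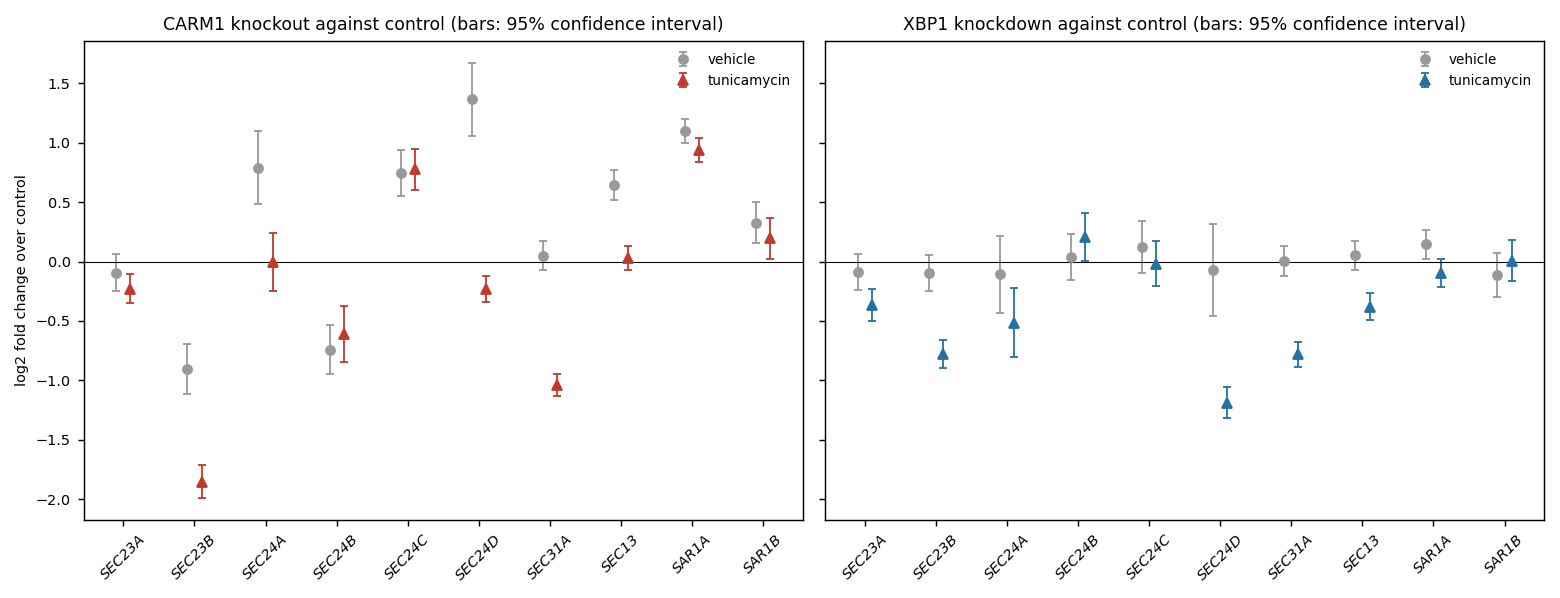
Log2 fold change over control cells (vertical axis) for each member with vehicle (grey circles) and with tunicamycin (coloured triangles), in CARM1 knockout cells at left and XBP1 knockdown cells at right, with bars for the 95% confidence interval. The knockdown differences lie near 0 with vehicle and reach -1.19 for SEC24D with tunicamycin, while the knockout differences run from -1.85 to 1.36.

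The paralogs were set against each other as the log2 ratio of their CPM within a library, which is independent of library scaling. Ratios are compared between groups only, because 3′ counts of different genes were not set per length. For 8 pairs within a family, an exact two-sided permutation test was made with labels permuted within strata, and p-values were adjusted over the 8 pairs. The SEC24 pairs share genes, so their ratios are not independent of each other. SEC23B/SEC23A was -0.89 to -0.53 in control cells with vehicle and 1.08 to 1.16 with tunicamycin. It was -1.72 to -1.42 and then -0.61 to -0.43 in knockout cells, and -0.80 to -0.72 and then 0.69 to 0.72 in knockdown cells. The ratio shifted toward SEC23B in every genotype, by 1.87, 1.07 and 1.47 in control, knockout and knockdown cells, a mean shift of 1.47 with an exact p of 0.00025, the smallest possible (adjusted p = 0.0004).
SEC24D gained on each of its paralogs with tunicamycin, by a mean log2 shift of 3.37 against SEC24B, 2.70 against SEC24A and 2.58 against SEC24C (exact p = 0.00025 each). SEC24C gained on SEC24B by 0.79 (exact p = 0.00025) and SEC24A on SEC24B by 0.67 (exact p = 0.00075). The shift of SEC24A/SEC24C was -0.12 (exact p = 0.351), made up of 0.25 in control, -0.57 in knockout and -0.03 in knockdown cells. SAR1B/SAR1A shifted by 0.11 (exact p = 0.0602), with -0.02, 0.01 and 0.35 in the 3 genotypes, and its exact p was 0.0393 to 0.0495 without control vehicle library 2 (0.12), control tunicamycin library 3 (0.12), knockout vehicle library 1 (0.12) or knockout tunicamycin library 2 or 3 (0.12 and 0.13).

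**Figure D4:**
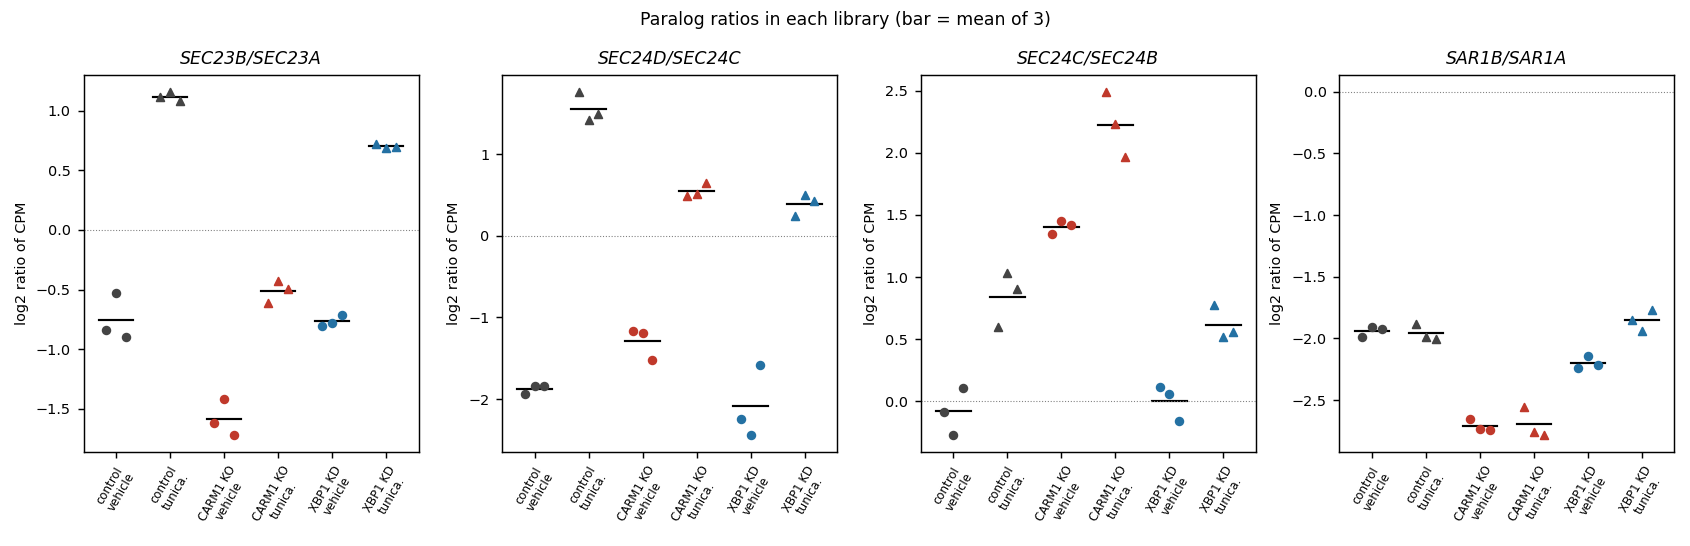
Log2 ratio of CPM (vertical axis) within each of the 18 libraries for 4 paralog pairs, with the group mean as a bar, circles for vehicle and triangles for tunicamycin. SEC23B/SEC23A and SEC24D/SEC24C are higher with tunicamycin in each genotype, and SAR1B/SAR1A is lowest in knockout cells, at -2.78 to -2.56.

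Knockout cells, averaged over both treatments, differed from control cells in 5 of the 8 ratios, each at an exact p of 0.005, the smallest that 400 arrangements allow (adjusted p = 0.008). The SEC24 ratios among these all have SEC24B as denominator and are not separate findings. SEC24B was itself lower in knockout cells (log2 difference -0.74 with vehicle and -0.61 with tunicamycin). SEC23B/SEC23A was lower by -1.23 and SAR1B/SAR1A by -0.76, and SEC24C/SEC24B, SEC24D/SEC24B and SEC24A/SEC24B were higher by 1.43, 1.22 and 1.06. In the same order, the differences with vehicle were -0.83, -0.77, 1.48, 2.06 and 1.52. Those with tunicamycin were -1.63, -0.74, 1.38, 0.38 and 0.61. SEC24D/SEC24C differed by 0.58 with vehicle and by -1.01 with tunicamycin, a mean of -0.21 (exact p = 0.45). SEC24A/SEC24C differed by 0.03 with vehicle and by -0.78 with tunicamycin, a mean of -0.37 (exact p = 0.07), and by -0.41 without knockout vehicle library 3 (exact p = 0.04). SEC24D/SEC24A differed by 0.55 with vehicle and by -0.23 with tunicamycin, a mean of 0.16 (exact p = 0.42). The difference between treatments in these ratios was not tested.
Knockdown cells differed from control cells in SEC24A/SEC24C by -0.36 (exact p = 0.005, adjusted p = 0.04) and in SEC24A/SEC24B by -0.43 (exact p = 0.01, adjusted p = 0.04). These differences were -0.22 and -0.14 with vehicle and -0.50 and -0.72 with tunicamycin. SEC24D/SEC24B (-0.76, exact p = 0.025) and SEC24D/SEC24C (-0.69, exact p = 0.02) had an adjusted p of 0.05 and did not pass below it. Their differences with tunicamycin were -1.39 and -1.16, against -0.13 and -0.21 with vehicle. SEC24D/SEC24B had an exact p of 0.055 without knockdown vehicle library 2 (-0.68). SEC23B/SEC23A differed by -0.21 (exact p = 0.05), and by -0.23 and -0.25 without control vehicle library 1 or 3 (exact p = 0.04 and 0.035). SEC24D/SEC24A differed by -0.33 (exact p = 0.105), and by -0.44 without knockdown vehicle library 3 (exact p = 0.01).

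The genes around the COPII coat were counted as lists, beside these shares over all genes tested. With tunicamycin 22.0% were higher and 19.9% lower in control cells, 20.6% and 18.8% in knockout cells, and 19.2% and 19.0% in knockdown cells. A lower interaction term was called for 12.4% in knockout and 1.67% in knockdown cells, and a higher one for 10.5% and 0.364%. Of 12 genes of ER exit sites and COPII accessory factors, 11 were tested, since SEC16B was near 0 counts. In control cells 7 rose with tunicamycin and none fell, by edgeR or by DESeq2, nor at an unadjusted p under 0.05. Among these 7, MIA2, a cargo receptor component for large cargo, rose most (log2 fold change 1.80) and KLHL12 least (0.21). PREB, the exchange factor of SAR1, rose by 1.37, less than MIA3 (1.53). In knockout cells 7 rose (5 by DESeq2) and CUL3, a ubiquitin ligase scaffold that acts on SEC31, fell (-0.48), and in knockdown cells 5 rose and PDCD6, a calcium-binding partner of SEC31A, fell (-0.27). The interaction was lower for 4 of 11 (3 by DESeq2) in knockout cells (CUL3, SEC23IP, TFG and PREB, from -0.49 to -0.28) and for PREB (-0.82) in knockdown cells. SEC23IP is in the same list of the study as SEC23B. With vehicle 8 of 11 were lower in knockout cells, from -1.59 for KLHL12 to -0.36 for MIA2, and PEF1 was higher (0.62). Over all genes 36.9% were lower and 37.5% higher in this comparison.
Of the 10 genes of the COPI coat, which returns proteins from the Golgi to the ER, 7 rose with tunicamycin in control cells and 8 in each modified genotype. COPA rose most in control cells (1.70, against 0.70 in knockout and 1.25 in knockdown cells). The interaction was lower for 6 in knockout cells, lowest for COPA (-1.02), and for 4 in knockdown cells, lowest for COPB2 (-0.56). Over all genes 12.4% had a lower term in knockout and 1.67% in knockdown cells. COPZ2 had 0 to 3 counts in each control or knockdown library but 71 to 100 in each knockout library.
Of 9 tethering and fusion genes of this step, 8 rose with tunicamycin in control cells, led by the SNARE gene BET1 (2.19), and RAB1B, a GTPase of this step, fell (-0.31). In knockout cells 8 rose (7 by DESeq2) and in knockdown cells 7, and RAB1B fell in both (-0.28 and -0.25). The interaction was lower for 8 of 9 in knockout cells, lowest for RAB1A (-0.89), and for 6 of 9 (7 by DESeq2) in knockdown cells, lowest for BET1 (-0.69). The shares with a lower term over all genes were 12.4% and 1.67%. The median log2 response in control cells was 0.59 for the exit site list, 0.98 for COPI and 1.15 for tethering and fusion, beside 0.78 for the COPII coat. The COPI median includes COPZ2, whose log2 fold change of 1.03 (standard error 1.46) rests on 0 to 3 counts a library.

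**Figure D5:**
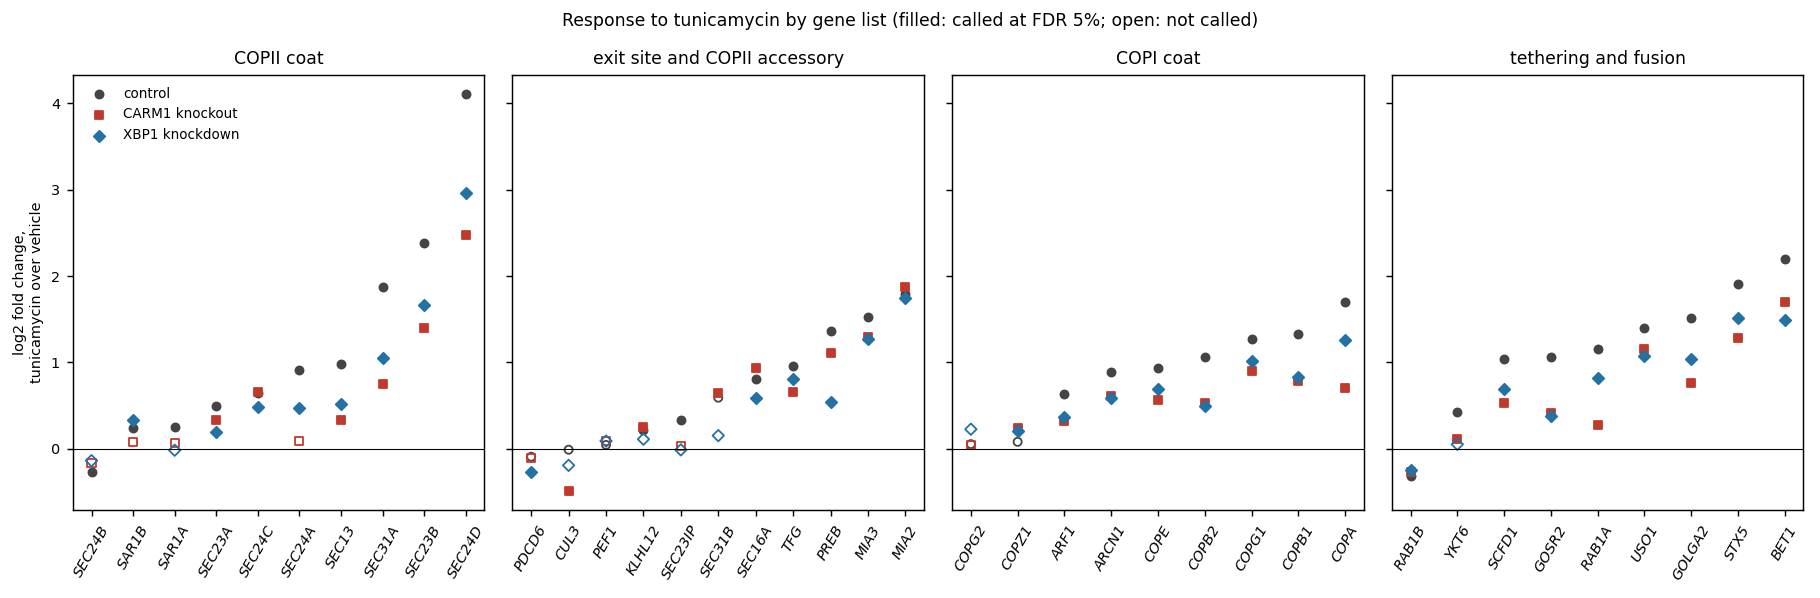
Log2 fold change of tunicamycin over vehicle (vertical axis) for each tested gene of the COPII coat, the exit site and accessory list, the COPI coat without COPZ2, and the tethering and fusion list, in control (circles), CARM1 knockout (squares) and XBP1 knockdown cells (diamonds). Filled symbols passed the test at an FDR of 5%, and in control cells the highest gene of each list is SEC24D, MIA2, COPA and BET1.

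The genes whose log2 CPM followed each member most closely over the 18 libraries were sought outside the members and lists, among 9338 genes whose log2 CPM averaged 3 or more. For SEC24D these were FNDC3B (Pearson r = 0.990) and SELENOS (0.987), for SEC23B ERLEC1 and AP3D1 (both 0.990), for SEC31A TULP3 (0.990) and SRP19 (0.982), and for SEC13 GNL3 (0.985) and UBXN4 (0.980). For SAR1A they were FKBP1A (0.994) and GTF2F2 (0.993), for SAR1B TFE3 (0.967) and HERPUD2 (0.964), and for SEC23A MOGS (0.951) and SEC61B (0.947). For SEC24A they were UFSP2 (0.956) and FAM114A2 (0.951), for SEC24B ELOA and OSBPL1A (both 0.979), and for SEC24C ZFAS1 (0.971) and DKC1 (0.970). The libraries fall into 6 groups, so such an r mostly describes a like order of the groups and not independent points.
SEC24B-AS1, an antisense gene, had 17 to 46 counts in each control and knockdown library and 1 to 6 in each knockout library, beside 124 to 373 counts of SEC24B, and SEC23A-AS1 had 0 to 3. The pseudogenes SAR1AP1, SAR1AP2, SAR1AP3, SAR1AP4, SEC13P1 and SEC24AP1 were at 0 counts in every library. Whether the counting used the strand is not given in the sources used here, so reads of SEC24B and its antisense gene could be mixed.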

How the data were processed

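mRNA of 18 libraries (6 groups of 3 by genotype and treatment, as labelled) was sequenced by the authors from the 3′ end as 75 nt single reads, aligned to hg19 with bowtie2 and deposited per Ensembl gene in RSEM's unit, expected counts, in whole numbers without normalization. The Ensembl release is not given in the sources used here. The deposited counts were tested with edgeR 4.0.16 in R 4.3.3 (filterByExpr with a minimum count of 10, TMM, quasi-likelihood F test on the compared groups alone), with Benjamini-Hochberg adjustment over 17317 genes. The members and lists were chosen with earlier results of these data known. All 10 members were named, and from each list the highest and lowest called genes or those of a count of at most 5. A standard error was taken as the absolute log2 change over √F. Log2 CPM used a prior count of 2. Paralog ratios were tested by exact permutation within genotype (8000 arrangements) or within treatment (400). With 3 libraries against 3 a single-gene permutation test cannot go below 0.1, so none was run. Chi-square per degree of freedom between replicates was 1.84 to 6.89, above counting error, so precision was taken from the replicates. Genes were placed with the GENCODE annotation of GRCh37. In simulated counts of 17317 genes, only 67, 67 and 66 were changed, by a log2 change of 0.5, 1 and 2. There 8.95% of edgeR's calls were false for tunicamycin in control cells, 10.7% for knockout against control with tunicamycin and 6.71% for the knockout interaction. Far more genes were called in the data, so these values are not the false share of the reported calls. Of the changes of 0.5, 68.7%, 70.1% and 46.3% were recovered, in the same order. The changed genes were drawn only from genes with mean counts well above the filter, so these shares do not cover genes near it. Alternatives were DESeq2 1.42.0 and its size factors, other filters, an FDR of 1%, a replicate block, a joint fit of all libraries, and each library left out in turn. SEC22B and PECAM1 were not matched by symbol. Figures were drawn with matplotlib 3.10.9.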

Additional observations from a re-analysis of the deposited data

Results flagged for a closer look

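The response to tunicamycin differed between genotypes by the interaction test in edgeR for 10 pairs of member and genotype, all toward a smaller response than in control cells. In CARM1 knockout cells the interaction terms, on the log2 scale, were -1.65 for SEC24D, -1.14 for SEC31A, -0.99 for SEC23B, -0.84 for SEC24A, -0.67 for SEC13 and -0.21 for SAR1A. In XBP1 knockdown cells they were -1.14 for SEC24D, -0.81 for SEC31A, -0.70 for SEC23B and -0.46 for SEC13. Both sets of terms rest on the same 6 control libraries. Over all genes, 12.4% had a lower and 10.5% a higher term in knockout cells, and 1.67% and 0.364% in knockdown cells. The SAR1A term lost its call with no filter, with at least 10 counts in every library, and without any of the 6 control libraries. SEC24D, SEC24A and SEC13 were higher in knockout cells with vehicle (1.36, 0.79 and 0.65). With tunicamycin SEC24D was lower (-0.23), and SEC24A and SEC13 were not called different from control (-0.003 and 0.03). SAR1A was higher under both treatments (1.10 and 0.94). SEC31A and SEC23B were at 0.05 (not called) and -0.91 with vehicle and at -1.04 and -1.85 with tunicamycin. The knockout libraries differ from the others in markers such as PAX8 and KRT7, whose part in these terms was not tested.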

How the results depend on the processing

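No member changed direction while called under any alternative, and of 1289 recomputed member results 1243 kept their side of the threshold, 44 lost the call and 2 gained it. Calls of SAR1B with tunicamycin in control cells and between knockout and control with tunicamycin, and of SEC24A with tunicamycin in knockdown cells, were lost with DESeq2. The count of members lower with tunicamycin in control cells, 1 (SEC24B), was 0 with DESeq2 and with an FDR of 1%, and 0 to 1 with a library left out. With all 18 libraries in one fit 1 member, SAR1A, was higher in knockdown cells with vehicle. The same fit also called its interaction in knockdown cells (-0.25). With a library left out, the mean shift of SAR1B/SAR1A with tunicamycin was 0.090 to 0.13 and the knockout difference of SEC24A/SEC24C was -0.42 to -0.30. For the knockdown, SEC23B/SEC23A was then -0.25 to -0.16, SEC24D/SEC24A -0.44 to -0.27 and SEC24D/SEC24B -0.84 to -0.68. No general pairing by replicate number was seen: deviations of 45 same-number pairs correlated at -0.25 to 0.24 (median -0.02). Pairs of different number were not taken as a reference, so pairing within some groups is not excluded. With the replicate number as a block, SAR1B lost its calls with tunicamycin in control cells (0.23) and between knockout and control under tunicamycin (0.20), and permuting within pairs gave SEC24D/SEC24C in knockdown cells -0.69 at an exact p of 0.0625.
Over all genes, the knockdown with vehicle had 359 higher genes, against 632 with no filter, 696 with all libraries in one fit and 125 at an FDR of 1% (524 lower genes against 252 at 1%), and 146, 160, 168 and 228 without control library 2, knockdown library 2, control library 1 or knockdown library 3 and 580 without control library 3 (289, 299, 309, 346 and 654 lower). With tunicamycin it had 1210 higher and 1481 lower, against 523 and 823 at 1%, 617 and 906 without control library 3, 724 and 1019 without knockdown library 3 and 794 and 1118 without knockdown library 2. Its interaction had 63 higher genes, against 263 with no filter, 104 with DESeq2, 119 with all libraries, 39 with the block and 12 at 1%, 24 to 41 without control vehicle library 1 or 2, control tunicamycin library 3, knockdown vehicle library 2 or 3 or knockdown tunicamycin library 2 or 3, and 98 without control vehicle library 3, and 290 lower, against 469 with no filter and 155 at 1%. The knockout interaction had 1814 higher and 2151 lower, against 1112 and 1419 at 1%. Depth limits SEC24A and SEC24D with vehicle, at 68 to 219 counts a library. The cause of these changes was not tested.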
